A study of Mus musculus with 32 samples.

Results

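The nuclear genes of the mitochondrial respiratory chain were described in kidneys of male and female mice before and after cisplatin. The genes were taken by name from the deposited gene table: protein-coding rows whose symbols begin with Nduf and a letter of the subunit series, Uqcr, Sdha to Sdhd, Cox4 to Cox8 with a letter, or Atp5. This gave 85 of the 54532 genes, under 84 distinct names, since 2 rows are called Atp5o. By these names 37 genes belong to complex I, 4 to complex II, 8 to complex III, 18 to complex IV and 18 to complex V. A total of 82 passed the filter on low counts and were tested; Cox8c, Cox7b2 and the second Atp5o row, with 2, 1 and 0 counts over all libraries, did not. The choice used names only and no measured value. Names do not follow function everywhere: the rule takes in Atp5s, which is not a subunit of the enzyme, Cox7a2l, a factor of supercomplexes, and Ndufa4, now known as a subunit of complex IV, and it leaves out subunits with other names, such as Cyc1, cytochrome c1 of complex III, and Ndufab1, the acyl carrier protein of complex I.

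The kidneys came from wild-type C57BL/6 mice aged 6 to 8 weeks. Injured mice had received a single intraperitoneal dose of 20 mg/kg cisplatin, a platinum drug that injures the tubules of the kidney, and were taken 2, 3 or 5 days later. The study's results describe the Day 0 animals as healthy, although the sample labels enter cisplatin for the Day 0 females and no agent for the Day 0 males. Each of the 8 groups of sex and day held 4 mice, with 1 RNA-seq library of whole-kidney RNA per mouse. In such bulk samples, fewer cells of a type and less RNA per cell cannot be told apart.

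The respiratory chain passes electrons from NADH through complex I, or from succinate through complex II, to complex III and then to complex IV, which reduces oxygen, and complex V uses the resulting proton gradient to make ATP. Most subunits are encoded in the nucleus and a smaller set in the mitochondrial genome, so the complexes need both genomes. The proximal tubule is among the tissues richest in mitochondria and depends on them for the energy of reabsorption, and it is the segment that takes up cisplatin.

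The libraries held between 16502107 and 35961325 counts on genes, and between 3780528 and 34345113 after the 37 genes of the mitochondrial genome were set aside, as was done for all values here unless stated. Proximal tubule markers were measured in every library, with all 16 of 16 listed genes above 0. Transcripts of the mitochondrial genome took 4.49% to 24.0% of the counts at Day 0, 4.87% to 14.0% at Day 2 and Day 3, 42.5% to 79.8% in Day 5 males and 9.30% to 77.9% in Day 5 females. Xist, the transcript made by an inactive X chromosome, went against the label of 1 library: male Day 5 mouse 1 as labelled, with 4153 counts where the other Day 5 males had 59 to 260. This library also had 387 counts of Y-linked genes, where those males had 447, 545 and 491. Day 0 females 1 to 4 had 221, 5, 44 and 66 Y-linked counts, against 0 in every other female library. Of the Day 0 libraries, male mouse 3 and female mice 2 and 3 had TMM factors of 0.715, 0.742 and 0.714, under those of every other library, of which the lowest was 0.826. Without these 3 libraries no member was called by edgeR at Day 3 in females, where 66 of 82 had an unadjusted p under 0.05. Only Day 0 females 1 and 4 were left in that fit, and the share of all genes with such a p is not given. Markers of other organs differed among the Day 0 females: the hepatocyte markers had mean log2 CPM of 2.90, 9.97, 5.45 and 1.61 in mice 1 to 4 and 1.61 to 5.24 in injured females. The adrenal cortex markers had -1.58, 6.18, 1.98 and -0.77 there, 1.90 to 8.87 in Day 3 females and 6.85 to 8.34 in Day 5 females. In males the adrenal cortex markers had -2.43 to 2.31 at Day 0, 0.95 to 6.89 at Day 2, -1.74 to 3.66 at Day 3 and 2.86 to 5.22 at Day 5. The part of either in the members' levels was not tested. Transcripts of red blood cells also moved with the groups: the 6 erythroid markers summed to 590.3 to 3569 CPM at Day 0, 1.17 to 3.07 in Day 3 males and 4.22 to 110 in Day 3 females, and their part in the members' levels was not tested.

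At Day 0 the members together took 2.85% to 5.53% of the non-mitochondrial counts, and their levels differed widely. In FPKM, which divides by the gene length that the authors used, Cox6a1, Cox8a and Cox4i1, all subunits of complex IV, led with Day 0 means of 2440, 2170 and 1400, followed by Uqcr11 of complex III with 1300. Atp5a1 and Atp5b, the catalytic core of ATP synthase, had 899 and 838. Tissue isoforms were among the lowest, with Cox6b2 at 16.7, Cox6a2 at 7.97 and Cox4i2 at 3.71. These are means over both sexes of FPKM values computed here from the counts, with TMM-scaled library sizes, and not the deposited FPKM values. The length used exceeded that of the transcript in some genes, such as Ndufs1, the largest subunit of complex I, with 8086 against 2590 bases, so its FPKM of 26.9 is low for its counts and the order is approximate.

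The members together took a smaller share of the counts after cisplatin. In males they took 3.11%, 3.14%, 4.73% and 3.10% of the non-mitochondrial counts in Day 0 mice 1 to 4. The Day 2 males held 2.41% to 2.63% and the Day 3 males 2.35% to 2.39%, all below the lowest Day 0 male. The Day 5 males held 2.73%, 2.91%, 2.08% and 2.97%, below Day 0 and with a wider spread. Taken over protein-coding genes alone the Day 5 males held 2.47% to 3.72% and the Day 0 males 3.19% to 4.82%, so the groups then overlapped. In females the Day 0 shares were 4.10%, 4.69%, 5.53% and 2.85%, so mouse 4 stood close to the injured animals and the other 3 above them. The Day 2 females held 2.30% to 2.72% and the Day 3 females 2.29% to 2.62%, without overlap with Day 0. The Day 5 females held 2.10% to 3.27% and overlapped it. Male means (± SD, n = 4) were 3.52% ± 0.807 at Day 0, 2.50% ± 0.0983 at Day 2, 2.37% ± 0.0206 at Day 3 and 2.67% ± 0.408 at Day 5. Female means were 4.29% ± 1.13, 2.54% ± 0.178, 2.45% ± 0.142 and 2.68% ± 0.479. Complex II, whose 4 subunits also serve the citric acid cycle, kept the narrowest range, from a mean of 0.216% at Day 0 to 0.195% at Day 3 in males and from 0.214% to 0.186% in females, while complex I went from 0.953% to 0.583% and from 1.17% to 0.611%. At Day 5 complex II was at 0.144% ± 0.0349 in males.

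**Figure D1:**
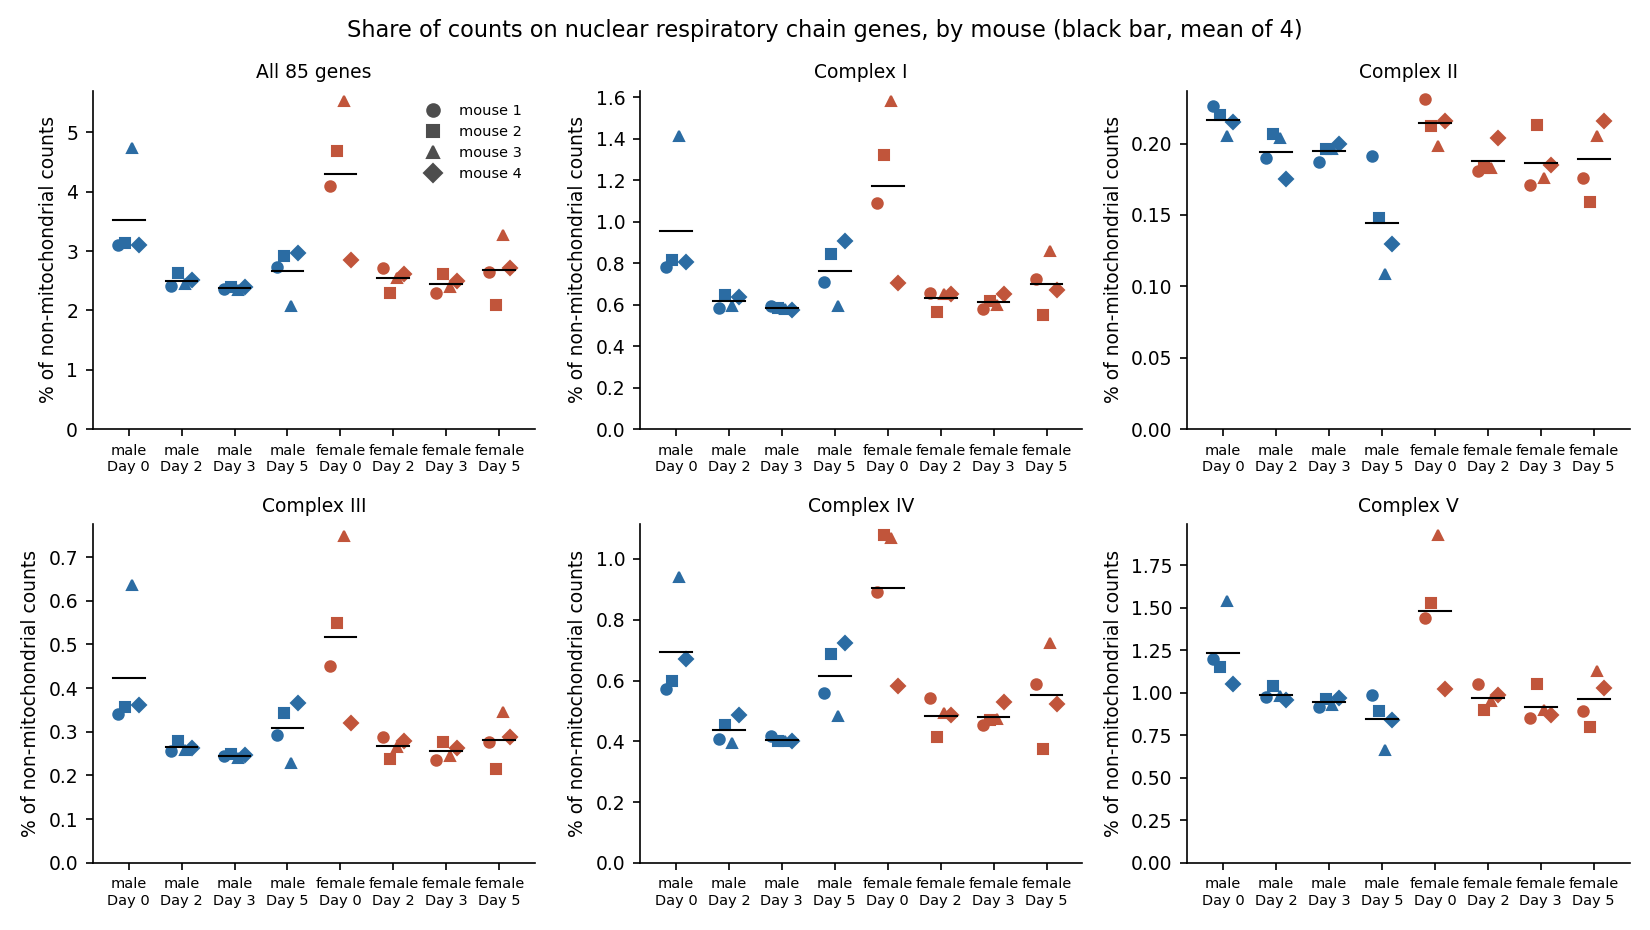
Share of non-mitochondrial counts (percent, linear axes from 0) on all 85 genes and on the genes of each complex, for each of 32 mice (blue male, red female, symbol shape for the mouse number, black bar the mean of 4). Male Day 0 mouse 3 (4.73%) and female Day 0 mice 1 to 3 (4.10% to 5.53%) stand above the other Day 0 mice, and the Day 3 males lie within 2.35% to 2.39%.

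In males most members were below 0 at Day 2 and Day 3. At Day 2, 80 of the 82 tested members had a log2 fold change below 0, with a median of -1.04 where the median of all genes tested was 0.03. By edgeR fitted on these groups only 3 passed an adjusted p of 0.05, all lower. Among all genes tested, 1.43% were called lower, and 48.3% had a value below 0. DESeq2, limma with quality weights and 1 fit over all groups called more members here, with counts in the last section. For 65 members every Day 2 male lay below every Day 0 male, against 11.9% of all genes. At Day 3, 65 members were called lower and 1 higher, Cox6b2, with a median of -1.18. The background was 14.0% of genes called lower and 10.7% called higher. For 72 members every Day 3 male lay below every Day 0 male, against 17.3% of all genes. Of the members called, 15 fell by more than 1.5 on the log2 scale, where 1.98% of all genes did. Without male Day 0 mouse 3 the medians were -0.61 and -0.70 and the members called were 57 and 72. The Day 2 count was 47 without male Day 0 mouse 4 and 0 without any other single mouse of that comparison, and the Day 3 count was 8, 9, 6 and 12 without Day 3 mice 1 to 4. Of the 16 proximal tubule markers 1 was lower and 2 were higher in Day 3 males, with a median of -0.07. The 4 markers of the distal convoluted tubule, also rich in mitochondria, had medians of -0.83 in Day 2 males with 1 called lower, -1.5 in Day 3 males with 3 called lower and -1.03 in Day 3 females with 1 called lower. Their part in the members' values was not tested.

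In females most members were below 0 at Day 2 and Day 3. At Day 2, 78 of 82 members were below 0, where 46.4% of all genes were, with a median of -1.34, and 7 were called lower, with 0.980% of all genes called lower: Cox8b, Uqcr11, Cox7a1, Atp5k, Atp5j2, Ndufa1 and Ndufs4. At Day 3, 78 were below 0, against 47.3% of all genes, with a median of -1.46, and 40 were called lower, of which 30 fell by more than 1.5, against 3.37% and 1.70% of all genes. The non-overlapping members, lower in every injured mouse, were 37 at Day 2 and 62 at Day 3, against 7.37% and 10.9% of all genes. Female Day 0 mouse 4 decided much of this: without it the members called were 67 and 75, with medians of -1.59 and -1.71. Without female Day 0 mice 2 and 3 the medians were -0.67 and -0.82 and the members called were 3 and 0. The 16 proximal tubule markers had a median of -0.32 in Day 3 females, with 11 below 0 and 1 called lower, and mean log2 CPM of 8.88 to 10.04 at Day 0 and 8.42 to 9.38 at Day 3, and their part was not tested. At Day 3, leaving out any other single mouse left 0 calls, or 6 without Day 3 mouse 2. At Day 2 it left 2, 1 and 6 without Day 0 mice 1 to 3 and 0, 0, 1 and 2 without Day 2 mice 1 to 4.

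**Figure D2:**
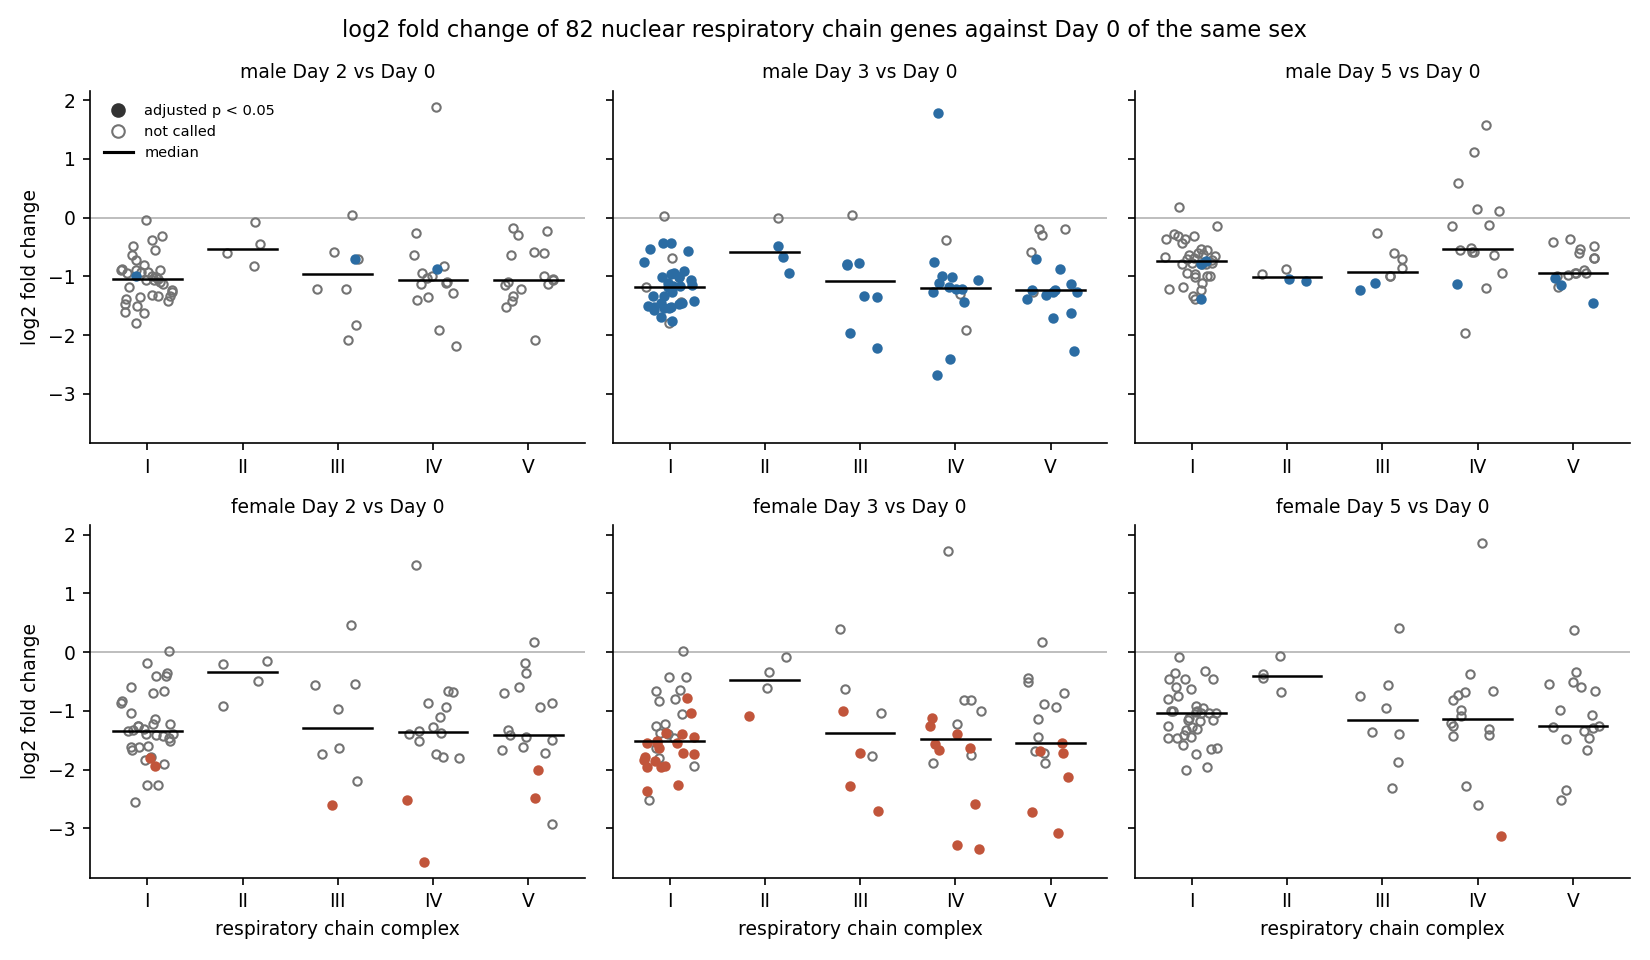
log2 fold change against Day 0 of the same sex for the 82 tested genes (points, jittered sideways), by complex, in 6 comparisons; filled points have an adjusted p under 0.05, open points do not, and black bars are medians. Nearly all points lie below 0 at Day 2 and Day 3, and the highest point in complex IV is Cox6b2, at 1.89, 1.78 and 1.58 in males and 1.48, 1.72 and 1.86 in females. In Day 5 males 11 of 16 complex IV points lie below 0, so Cox6b2 is not alone above it.

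Within complex I, 31 of 37 subunits were called lower in Day 3 males and 20 in Day 3 females, against 14.0% and 3.37% of all genes. Ndufs1, a core subunit that holds several of the iron-sulfur clusters that carry electrons, had 285, 273, 161 and 266 CPM (counts scaled to a common library size with TMM factors) in Day 0 males 1 to 4 and 227, 272, 242 and 273 in Day 3 males. The ranges overlapped and the log2 fold change was 0.02 (SE 0.173, adjusted p = 0.927). Ndufv3, an accessory subunit of the same electron-input module, had 249.9, 257, 364 and 303 CPM in Day 0 males, 154, 141, 140.2 and 157 in Day 2 males and 132, 136, 133 and 136 in Day 3 males. Its groups did not overlap, and it fell at Day 2 (-1.0, SE 0.173, adjusted p = 0.034) and at Day 3 (-1.16, SE 0.157, adjusted p = 0.0056). In females Ndufv3 had 315, 489, 337 and 203 CPM at Day 0 and 97.5, 130.4, 109 and 119.8 at Day 3, without overlap, and it fell (-1.52, adjusted p = 0.0488), with -1.14 (adjusted p = 0.159) without female Day 0 mice 2 and 3.

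Complex II had medians of -0.53 and -0.58 in males and -0.34 and -0.47 in females at Day 2 and Day 3, nearer 0 than the medians of the other complexes. In Day 5 males its median, -1.0, was the lowest of the 5 complexes, with 2 of 4 members called lower, and all 4 lay below Day 0 without overlap, as 14.4% of all genes did. Sdha, the flavoprotein that oxidizes succinate, had 874, 781, 846 and 824 CPM in Day 0 males and 770.5, 868, 850.3 and 879 in Day 3 males, with a log2 fold change of -0.01 (adjusted p = 0.973). Sdhb, the iron-sulfur subunit, fell in Day 3 males (-0.94, adjusted p = 0.0178) and in Day 3 females (-1.08, adjusted p = 0.0499), where it had -0.72 (adjusted p = 0.188) without female Day 0 mice 2 and 3. Sdhd, a membrane anchor, had 444, 427, 347 and 362 CPM in Day 0 males and 267, 294, 280.2 and 311 in Day 3 males. The Sdhd groups did not overlap, and it fell (-0.48, SE 0.12, adjusted p = 0.0255).

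Complex III held members that fell and a core protein that did not pass the test. Uqcr11, among its smallest subunits, had 274, 315, 1571 and 389.9 CPM in Day 0 males and 142, 139.8, 143 and 142 in Day 3 males, and 509.5, 1017, 2269 and 304 in Day 0 females and 133, 167, 136 and 191 in Day 3 females. Every Day 3 mouse lay below every Day 0 mouse of its sex, and Uqcr11 fell by 4.67-fold (adjusted p = 0.0279) and 6.49-fold (adjusted p = 0.049). Male Day 0 mouse 3 and female Day 0 mouse 3 had the highest levels. Without male Day 0 mouse 3 the male log2 fold change of Uqcr11 was -1.21 (adjusted p = 0.000315), where it was -2.22 with it. Without female Day 0 mice 2 and 3 the female value was -1.34 (adjusted p = 0.159), where it was -2.70 with them. Uqcrc2, a core protein of the complex, went the other way in those libraries: it had 452, 435, 128 and 389 CPM in Day 0 males and 331, 206, 74.8 and 427 in Day 0 females, lowest in mouse 3 of each sex. In Day 3 it had 334, 378, 361 and 384 and 299, 405, 318 and 307, and neither test passed (0.04, adjusted p = 0.932, and 0.40, adjusted p = 0.527). By limma with quality weights the male value of Uqcrc2 was -0.23 (adjusted p = 0.0326), and by edgeR without male Day 0 mouse 3 it was -0.23 (adjusted p = 0.0581). Uqcrb, a small subunit that helps to bind ubiquinone, was 1 of the 3 members that fell in Day 2 males, from 153, 172, 196 and 144 to 98.6, 113, 106 and 94.6 CPM (-0.70, SE 0.152, adjusted p = 0.0461).

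Of 17 complex V members tested, 12 were called lower in Day 3 males and 6 in Day 3 females, against 14.0% and 3.37% of all genes. Atp5b, the catalytic beta subunit, had 4180.4, 3789.9, 3329 and 3225 CPM in Day 0 males and 2774, 3177, 2933 and 3193 in Day 3 males, without overlap but with a log2 fold change of -0.29 that did not pass the test (adjusted p = 0.175). Atp5e, the epsilon subunit and the smallest of the members by coding length, had 354, 409, 2210.4 and 395 CPM in Day 0 males and 175, 193, 167 and 189 in Day 3 males. It had 757, 1653, 4056 and 329 CPM in Day 0 females and 179.7, 214, 185 and 223 in Day 3 females. Atp5e fell at Day 3 in males (-2.27, SE 0.632, adjusted p = 0.0342) and in females (-3.08, SE 0.692, adjusted p = 0.0499), without overlap between groups. Without male Day 0 mouse 3 the male value was -1.10 (adjusted p = 0.000196). The female value was -2.14 with female Day 0 mouse 3 left out and -1.40 with mouse 2 left out too (adjusted p = 0.16).

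Over the 82 members, those with short coding sequences fell more. The coding sequences ran from 156 bases (Atp5e) to 2181 bases (Ndufs1), with a median of 409.5. In Day 3 males the 22 members under 300 coding bases had a median log2 fold change of -1.51, the 26 members from 300 to 450 bases -1.15, the 23 from 450 to 900 bases -1.15 and the 11 of 900 bases or more -0.43. The other protein-coding genes tested followed a like order, with medians of -0.84, -0.75, -0.38 and 0.14 in these bins. In Day 3 females the members' medians were -1.82, -1.45, -1.40 and -0.51 and those of the other genes -0.81, -0.63, -0.23 and 0.18. Across members, Pearson's r of the fold change with log2 coding length was 0.560 in Day 3 males and 0.531 in Day 3 females, and 0.433 and 0.318 across the other genes. The genes share libraries and are not independent, so these are descriptions. Without the 3 Day 0 libraries of low TMM factor, r was 0.367 and 0.344 over the members and 0.380 and 0.131 over the other genes. The medians of the members, from the shortest bin to the longest, were then -0.86, -0.69, -0.70 and -0.32 in males and -1.0, -0.82, -0.79 and -0.42 in females. The 20 core subunits, which are mostly long, had medians of -0.72 in Day 3 males and -0.88 in Day 3 females, and the 50 members that are neither core nor tissue isoforms had -1.26 and -1.64.

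**Figure D3:**
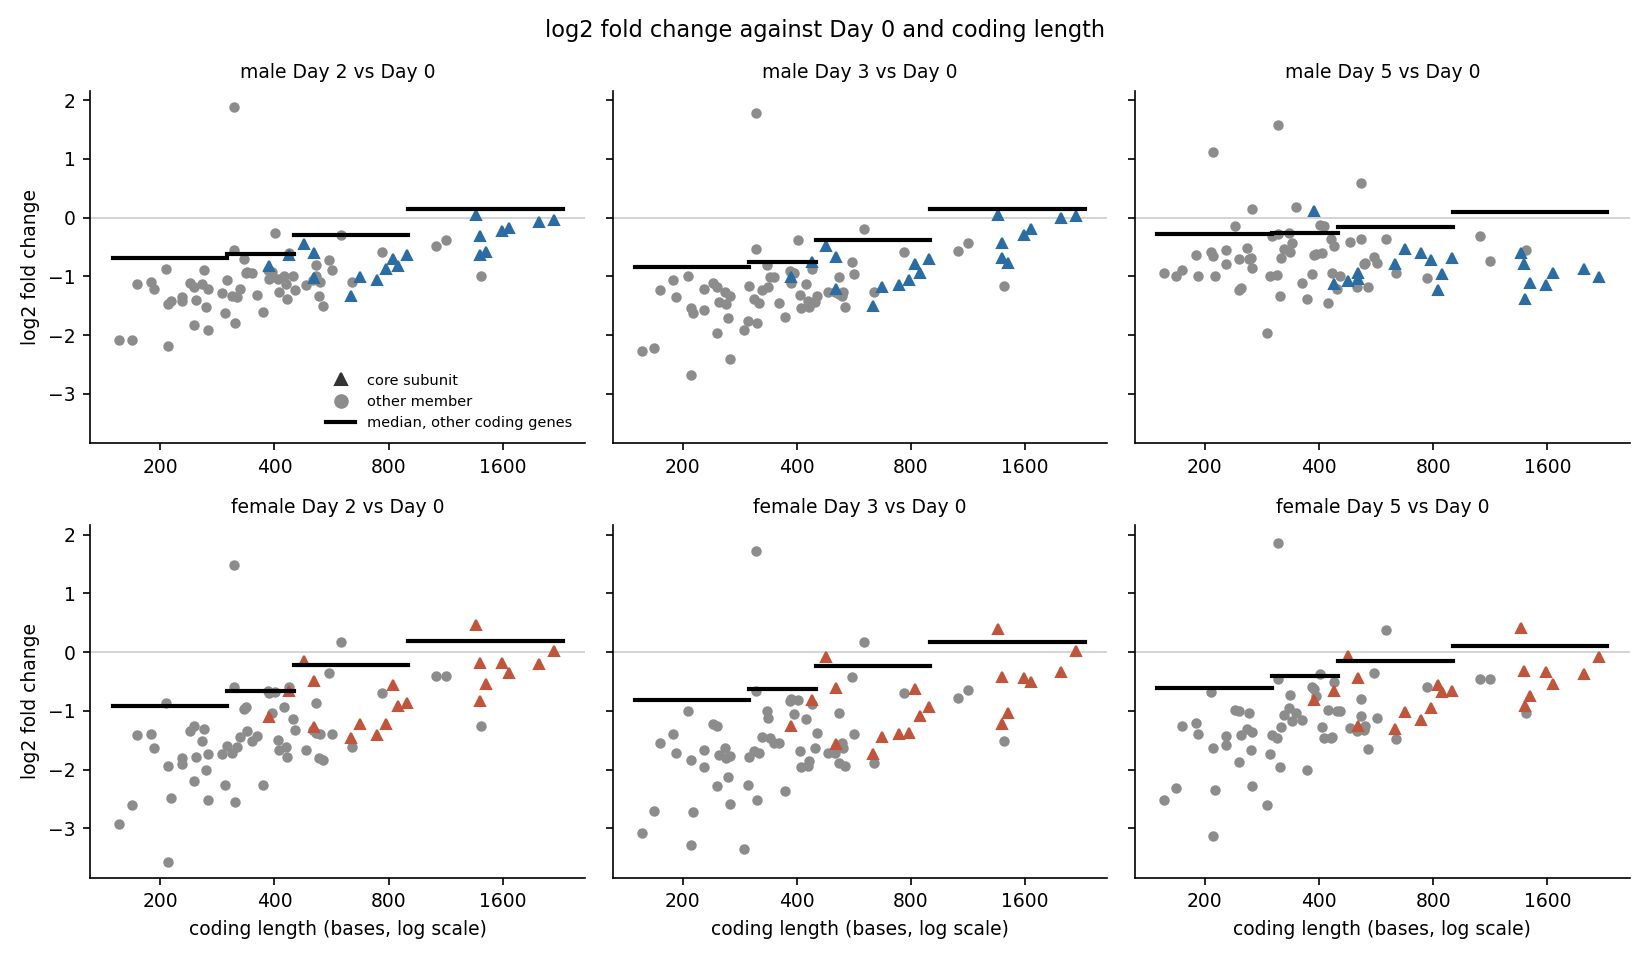
log2 fold change against Day 0 (linear axis) by coding length in bases (log axis) for the 82 tested genes in 6 comparisons; triangles are core subunits, grey circles other members, and black lines the medians of the other protein-coding genes in 4 length bins, of which the last takes in all longer genes. Short members lie lowest at Day 2 and Day 3, and in Day 5 males r is -0.161.

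In Day 5 males 11 of 82 members were called lower, a share near that of all genes, 10.3%, and the median was -0.76. Of these 11, 8 are core subunits, among them Ndufv1, Sdhd, Uqcrfs1 and Atp5b. The core subunits had a median of -0.95 and the 50 other non-isoform members -0.72. Across members r of the fold change with coding length was -0.161, against 0.555 and 0.560 at Day 2 and Day 3. Without male Day 0 mouse 3 these values were -0.49, 0.341 and 0.367, and the Day 5 medians from the shortest to the longest bin were -0.08, -0.18, -0.35 and -0.86. Ndufv1, the NADH-binding flavoprotein of complex I, had 538, 538, 1019.8 and 414 CPM in Day 0 males and 308, 239, 184 and 245 in Day 5 males. Its groups did not overlap, with a log2 fold change of -1.38 (SE 0.341, adjusted p = 0.0252). Uqcrfs1, the Rieske iron-sulfur protein of complex III, had 693, 733, 831 and 555 CPM in Day 0 males and 377, 309.7, 221 and 302 in Day 5 males (-1.23, SE 0.266, adjusted p = 0.0169). Atp5g3, a gene for the c subunit of the ATP synthase rotor, had 1076, 1061, 2225 and 691 CPM and 619, 473, 353 and 414 (-1.46, SE 0.407, adjusted p = 0.0362). In all 3 genes the highest Day 5 value was that of the library labelled male Day 5 mouse 1.

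Without the library labelled male Day 5 mouse 1, 15 members were called lower in Day 5 males and the median was -0.73. Without male Day 0 mouse 3 the count was 13 and the median -0.28. Leaving out male Day 0 mice 1, 2 and 4 gave 1, 0 and 13 calls, and leaving out Day 5 mice 2, 3 and 4 gave 0, 0 and 1. The proximal tubule markers moved with the Day 5 males: all 16 were below 0 with a median of -1.97 and 6 were called lower. Their summed level ran from 2061 to 14111 CPM at Day 5 and from 20925 to 26301 at Day 0. Noncoding transcripts took 5.10%, 15.1%, 15.7% and 20.4% of the non-mitochondrial counts of Day 5 males 1 to 4, against 1.83% to 2.86% at Day 0. Of 4 tested markers of the adrenal cortex 3 were called higher in Day 5 males, with a median of 3.83 on the log2 scale. Of 6 intercalated cell markers 4 were called higher (median 0.97), of 6 endothelial markers 3 (0.83) and of 8 leukocyte markers 2, S100a8 and S100a9, at 6.02 and 6.03, with 1 lower. The part of these in the members' levels was not tested.

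In Day 5 females 1 member was called lower, Cox8b, where 0.0795% of all genes were. The median was -1.05, and 79 members were below 0, against 47.3% of all genes. For 5 members the groups did not overlap, against 4.56% of all genes. The median was -0.81 with Day 0 mouse 3 left out and -0.45 with Day 0 mouse 2 left out as well. Without female Day 0 mouse 4, 55 members were called and the median was -1.35, and without any other single mouse of this comparison none was called by edgeR, where 57 members had an unadjusted p under 0.05 and were lower with all mice, against 9.71% of all genes. Female Day 5 mouse 2, with 77.9% of its counts on the mitochondrial genome, had a mean member level of 6.95 in log2 CPM, the lowest of the 32 libraries, and mice 1, 3 and 4 had 7.52, 7.97 and 7.53.

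The Day 0 libraries differed among themselves in the members more than the Day 2 and Day 3 groups did. The mean log2 CPM of the tested members was 7.85, 7.91, 8.93 and 7.87 in Day 0 males 1 to 4 and 8.40, 8.93, 9.13 and 7.67 in Day 0 females, so 4 of 8 Day 0 kidneys lay at 8.40 or above and 4 at 7.91 or below. All Day 2 and Day 3 mice lay between 7.06 and 7.68, and the Day 2 female at 7.68 was the only mouse of them to reach the lowest Day 0 value. The balance between subunits differed too. The core subunits exceeded the other non-isoform members by 1.29 to 1.44 in Day 0 males 1, 2 and 4 and in female 4, and by 0.47 in male 3 and 1.01, 0.62 and 0.24 in females 1 to 3. The Day 2 and Day 3 mice had 1.30 to 1.63, and the Day 5 males 0.62 to 1.27.

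The genes for cytosolic ribosomal proteins were high in the same Day 0 libraries as the members. Their mean log2 CPM was 9.08 in male 3 and 8.51, 9.09 and 9.28 in females 1 to 3 of Day 0. The remaining Day 0 libraries had 7.47 to 7.84. The members' mean less that of the ribosomal genes was 0.12, 0.07, -0.16 and 0.25 in Day 0 males and -0.36 to 0.01 in Day 2 males and -0.17 to 0.01 in Day 3 males. It was -0.11, -0.17, -0.15 and 0.21 in Day 0 females and -0.45 to -0.10 in Day 2 females and -0.50 to 0.08 in Day 3 females, so that Day 3 overlapped Day 0 in both sexes. At Day 5 it was -0.20, -0.26, -1.06 and -0.16 in males and -0.52, -0.56, -0.51 and -0.25 in females. Of 76 ribosomal protein genes tested, 25 were called lower in Day 3 males and 5 in Day 3 females, with medians of -1.01 and -1.24. In Day 5 males their median was -0.17, with 57 of 76 below 0, where that of the members was -0.76. Among the protein-coding genes outside the rule that passed the filter, those whose profile over 32 libraries was most like the members' mean were Mrpl58, a mitochondrial ribosome protein (r = 0.991), Lamtor4 (0.983), Cmc2 (0.983), Cox19 (0.982) and Rnaseh2c (0.981).

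**Figure D4:**
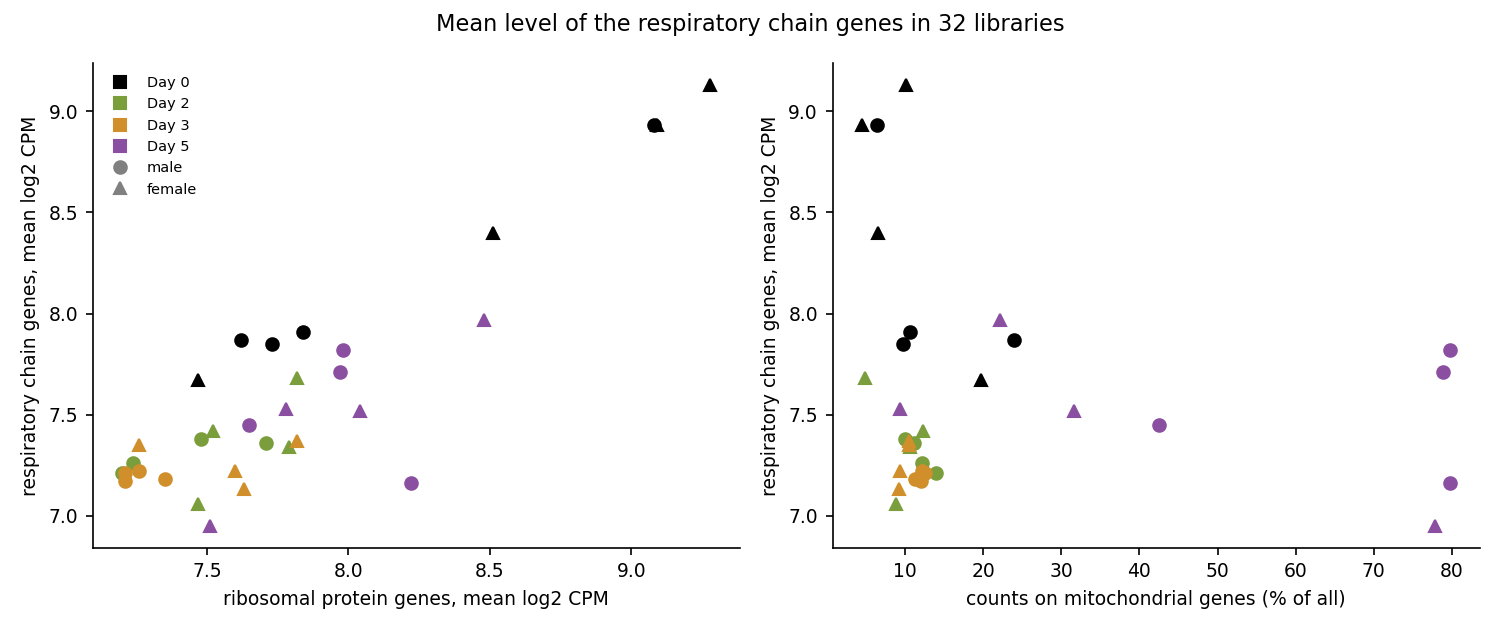
Mean log2 CPM of the tested respiratory chain genes in each of 32 libraries against the mean of the ribosomal protein genes (left) and against the percent of all counts on mitochondrial genes (right); colour marks the day and shape the sex. The 4 Day 0 libraries at 8.40 or above are also the 4 with ribosomal means of 8.51 or above, and the 4 libraries with 77.9% to 79.8% of counts on mitochondrial genes have member means from 6.95 to 7.82.

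Complex IV has subunits with isoforms for different tissues, and these held the largest falls called in Day 3 males and in females on each day. Cox8b and Cox7a1 are the forms of heart, skeletal muscle and brown fat. Cox8b had 42.6, 111, 141 and 31.8 CPM in Day 0 females, 5.43, 5.97, 6.28 and 8.96 at Day 2, 7.66, 9.92, 9.13 and 6.45 at Day 3 and 10.03, 3.38, 11.9 and 9.95 at Day 5. Every injured female lay below every Day 0 female, and Cox8b fell 11.9-fold at Day 2 (adjusted p = 0.00939), 9.7-fold at Day 3 (adjusted p = 0.0488) and 8.78-fold at Day 5 (adjusted p = 0.0489). Over 18 alternatives the Cox8b call was kept in 16 at Day 2, 10 at Day 3 and 6 at Day 5. At Day 3 it was kept among single mice left out only without Day 0 mouse 4 or Day 3 mouse 2, and at Day 5 only without Day 0 mouse 4. Without female Day 0 mice 2 and 3 the log2 fold changes of Cox8b were -2.45 (adjusted p = 0.00186), -2.13 (0.159) and -2.0 (0.0603). In males Cox8b had 10.9, 6.83, 47.9 and 76.1 CPM at Day 0 and 4.44, 6.35, 6.35 and 5.60 at Day 3, a fall of 6.41-fold (adjusted p = 0.0304). The male Day 3 call of Cox8b was kept in 11 of 18 alternatives, with log2 fold changes from -3.03 to -0.64, and was lost without any 1 of the Day 3 mice. In Day 5 males it had 20.8, 139, 48.2 and 106 CPM, overlapping Day 0, with a log2 fold change of 1.12 (adjusted p = 0.339). Cox7a1 had a like course in males, with 14.5, 11.9, 67.2 and 28.8 CPM in Day 0 males, 5.86, 5.83, 5.57 and 6.73 in Day 3 males and 16.5, 50.5, 13.1 and 59.5 in Day 5 males. It fell in Day 3 males (-2.41, SE 0.543, adjusted p = 0.0195) and in Day 3 females (-2.58, SE 0.502, adjusted p = 0.0488). Without male Day 0 mouse 3 Cox7a1 had -1.63 in Day 3 males (adjusted p = 0.00336), and without female Day 0 mice 2 and 3 it had -1.43 in Day 3 females (adjusted p = 0.159).

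Some fat transcripts were lower at Day 3 as well. The 10 markers of brown or white fat, of which at least 9 were above 0 in every library, summed to 1163 to 2414 CPM in Day 0 females and 558 to 962 in Day 3 females. In Day 5 females they summed to 603 to 1858 CPM and overlapped Day 0, while Cox8b did not. The sum did not speak for each marker. Ucp1, the uncoupling protein of brown fat, was the 1 fat marker called lower in Day 5 females (-2.89, adjusted p = 0.00454). There Ucp1 and Cidea lay below Day 0 without overlap, as Cox8b did, while the fat transcript Adipoq overlapped Day 0. In males the 10 markers summed to 705 to 3674 CPM at Day 0, 345 to 459 at Day 3 and 1302 to 7111 at Day 5. Ucp1 was at 292 CPM in male Day 0 mouse 4, which had the highest Cox8b of its group, and at 24.6, 15.2 and 25.2 in Day 0 males 1 to 3. Among Day 0 females Ucp1 was at 88.8, 127, 67.2 and 140 CPM in mice 1 to 4 and the 10 markers summed to 1163, 2414, 1814 and 2201, while Cox8b was highest in mouse 3 and lowest in mouse 4, so neither followed the order of Cox8b. The 11 muscle markers summed to at most 21.1 CPM in any library. Of the fat markers 5 were called lower in Day 3 males and 4 in Day 3 females. The part of fat in the levels of Cox8b and Cox7a1 was not tested.

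Cox6a2, the muscle form of subunit 6a, was scarce, with 119, 280, 124 and 108 counts in Day 0 females and 14, 38, 20 and 12 in Day 3 females, a fall of 10.2-fold (log2 fold change -3.35, adjusted p = 0.0488). Without female Day 0 mice 2 and 3 it had -2.76 (adjusted p = 0.159). Its exons overlap those of Itgad on the opposite strand. The forms usual in kidney fell as well. Cox8a had 926, 958, 1360.0 and 973 CPM in Day 0 males, 522, 577, 545 and 676 in Day 2 males and 550.1, 543, 518 and 542 in Day 3 males, without overlap (-0.88, adjusted p = 0.0494, and -1.0, adjusted p = 0.00929). Cox6a1 had 1718, 2473, 1856 and 1368 CPM in Day 0 females and 747, 833, 774 and 981 in Day 3 females (-1.12, SE 0.236, adjusted p = 0.0489), and -0.85 (adjusted p = 0.162) without female Day 0 mice 2 and 3.

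Cox6b2, the form of subunit 6b best known from testis, rose in Day 3 males. It had 7.73, 6.83, 15.3 and 11.5 CPM in Day 0 males, 10.7, 41.6, 23.1 and 79.5 at Day 2, 55.2, 19.2, 46.3 and 24.6 at Day 3 and 48.2, 17.9, 50.01 and 9.31 at Day 5. In females it had 20.3, 42.1, 29.8 and 14.3 CPM at Day 0, 123, 52.4, 76.4 and 38.8 at Day 2, 93.3, 13.3, 97.5 and 137 at Day 3 and 140.1, 34.4, 114 and 81.4 at Day 5. All 4 Day 3 males lay above all Day 0 males, while the other groups overlapped Day 0 in at least 1 mouse. It passed the test in Day 3 males (1.78, SE 0.408, adjusted p = 0.0204). The log2 fold change was 1.89 (adjusted p = 0.0785) and 1.58 (0.0602) in Day 2 and Day 5 males, and 1.48 (0.0654), 1.72 (0.101) and 1.86 (0.117) in Day 2, Day 3 and Day 5 females. Of the 13 tissue isoforms tested, 12 were below 0 in Day 3 males and in Day 3 females, and in both cases the exception was Cox6b2.

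**Figure D5:**
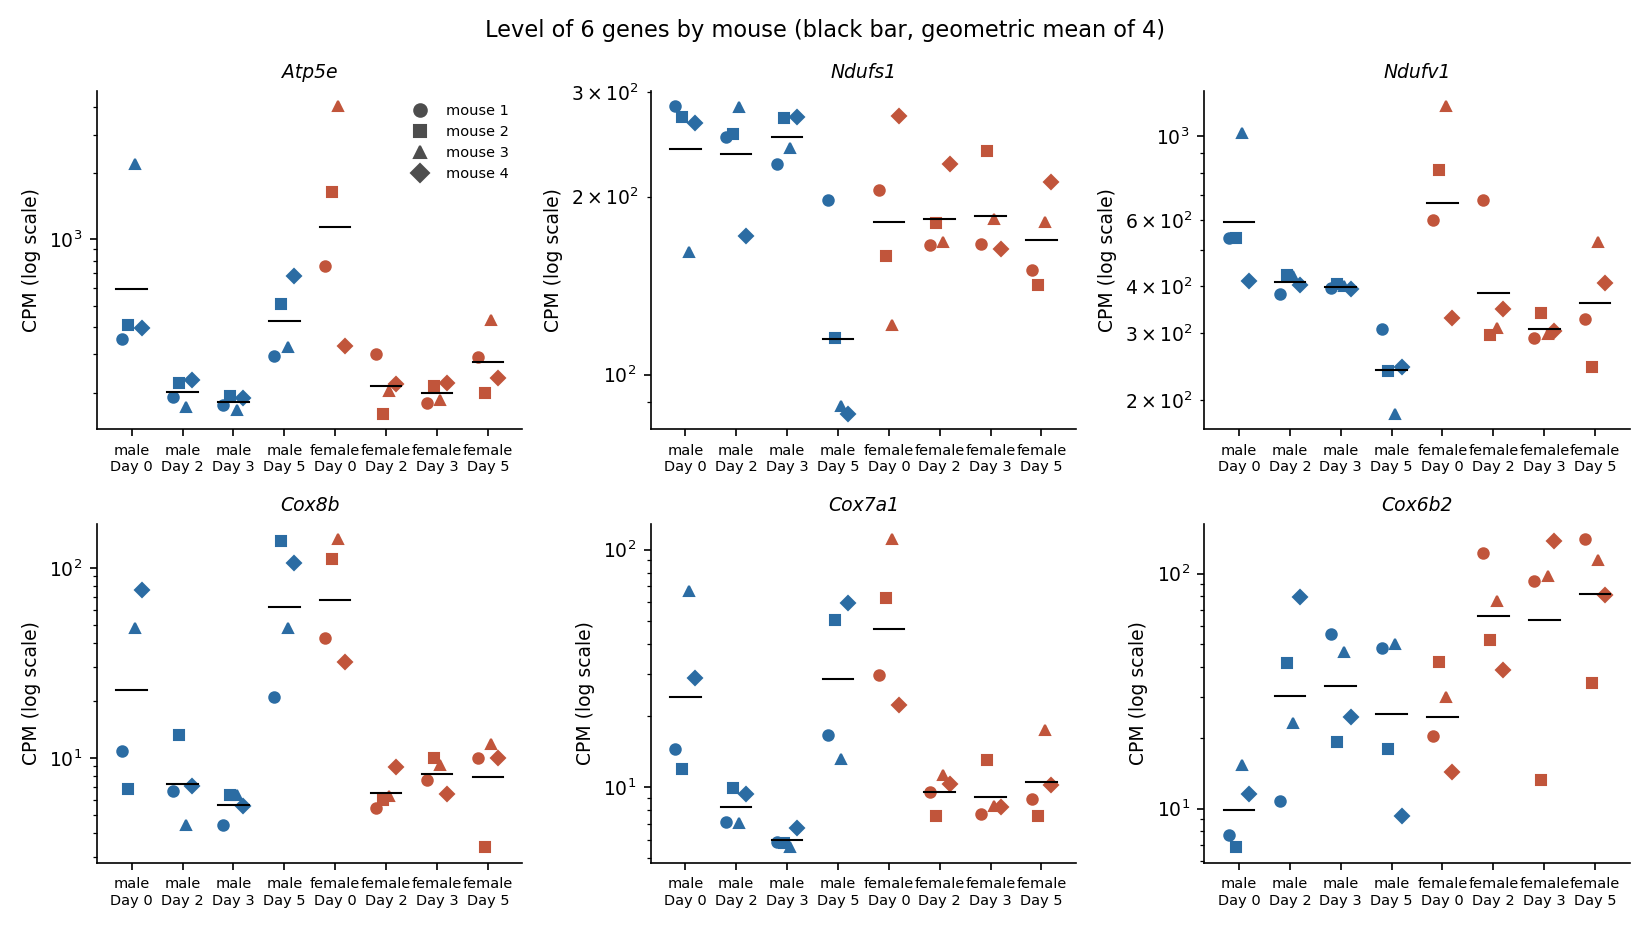
CPM on log axes of 6 genes in each of 32 mice (blue male, red female, symbol shape for the mouse number, black bar the geometric mean of 4). Atp5e and Cox7a1 are highest in Day 0 mouse 3 of each sex, and Cox8b lies between 31.8 and 141 CPM in Day 0 females and between 3.38 and 11.9 CPM in injured females.

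Between the sexes, 0 members were called by edgeR at Day 0, where 3 had an unadjusted p under 0.05, and 0.447% of all genes were called and 7.92% had such a p. With quality weights limma called members at Day 0 and at Day 2, and its counts are in the last section. The Day 0 median, male against female, was -0.43, -0.85 without male Day 0 mouse 3 and -0.07 without female Day 0 mouse 3. At Day 2, 0 members were called by edgeR, 1 had an unadjusted p under 0.05, and 1.48% of all genes were called and 14.9% had such a p. At Day 3, 10 members were lower and 3 higher in males, where 10.6% of all genes were called lower and 10.6% higher. Ndufb8, a membrane subunit of complex I, had 178, 165, 169 and 163 CPM in Day 3 males and 211, 227, 209.6 and 239 in Day 3 females, without overlap (-0.42, SE 0.0727, adjusted p = 0.00453). Ndufv1 was higher in males, with 397, 406, 401 and 393 against 292, 339.5, 298 and 305 CPM (0.35, SE 0.0691, adjusted p = 0.00833). The other members called lower in males were Cox8a, Atp5g1, Cox5b, Cox7b, Atp5g2, Ndufb7, Ndufa11, Cox8b and Cox7a1, and the other members called higher were Ndufa10 (0.25, adjusted p = 0.0496) and Ndufs1 (0.41, adjusted p = 0.0366). With 1 fit over all groups 0 members were called by edgeR between the sexes at Day 3, where 0 had an unadjusted p under 0.05 and the smallest adjusted p was 0.539. The Day 3 count was 5, 4 and 6 without Day 3 males 2 to 4, and 24 and 7 without Day 3 females 2 and 3. At Day 3, 7 of 16 proximal tubule markers were called higher in males (median 0.48) and 5 of 6 endothelial markers (0.44), with 0 lower. Lower, with 0 higher, were 5 of 6 collecting duct principal markers, 4 of 6 thick ascending limb markers and 3 of 7 injury markers. So were 33 of 76 ribosomal protein genes. The part of these in the members' values was not tested. At Day 5, 0 members were called by edgeR with 9 at an unadjusted p under 0.05, where 0.303% of all genes were called and 20.6% had such a p, and 6 were called without the library labelled male Day 5 mouse 1.

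The change from Day 0 was compared between the sexes by the interaction term. By edgeR 0 members were called at Day 2, Day 3 or Day 5, where 0%, 0.0113% and 0.18% of all genes were, and 0, 0 and 8 members had an unadjusted p under 0.05, against 4.23%, 7.16% and 14.5% of all genes. With quality weights limma called members at each of these days, and its counts are in the last section. The medians of the interaction were 0.33, 0.33 and 0.47, where a value above 0 is a smaller fall in males. With single mice left out they ran from 0.05 to 0.75, 0.05 to 0.76 and 0.10 to 0.87, lowest without female Day 0 mouse 3 and highest without male Day 0 mouse 3, and without the 3 Day 0 libraries of low TMM factor they were 0.08, 0.08 and 0.25. At Day 5, 3 members were called without the library labelled male Day 5 mouse 1. The largest term was that of Cox8b at Day 5 (4.31, SE 1.05, adjusted p = 0.0967), and Sdhd had -0.98 (SE 0.346, adjusted p = 0.204). The sexes' own values for Sdhd at Day 5 were -1.08 (adjusted p = 0.0217) in males and -0.06 (adjusted p = 0.915) in females. Both sexes' terms contain their Day 0 groups, whose spread among mice is given above.

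Other genes of the pathway moved with the members to differing degrees. Of 5 tested subunits and carriers whose names the rule leaves out, 5 were called lower in Day 3 males and 1 in Day 3 females. Cyc1 had a log2 fold change of -0.70 (adjusted p = 0.0107) in Day 3 males and -0.93 (0.0368) in Day 5 males, and Cycs, cytochrome c, had -0.87 (0.00814) and -0.86 (0.0448). Of 48 assembly factors 26 were lower and 1 higher in Day 3 males, with a median of -0.65, and 19 were lower in Day 5 males. Of 77 mitochondrial ribosome proteins 61 were lower in Day 3 males, with a median of -0.93, and 18 in Day 3 females, also at -0.93. Of 20 genes of the citric acid cycle 8 were lower in Day 3 males and 1 in Day 3 females, with medians of -0.39 and -0.19. The 13 protein genes of the mitochondrial genome were tested with mitochondrial genes kept in the TMM scaling, so their values are not on the members' scale. Their medians were -0.31 and -0.63 at Day 3 in males and females, with 1 and 2 called lower and 1 and 0 higher. In Day 5 males all 13 were called higher, with a median of 4.29 on the log2 scale, and in Day 5 females the median was 3.07 with 0 called.

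The regulators named here, and Cyc1 and Cycs above, were picked for their known roles and not by a rule on their values, which were known. Of 26 listed, 3 were lower and 3 higher in Day 3 males, where 14.0% of all genes were called lower and 10.7% higher. In Day 3 females 0 regulators were called by edgeR, where 3.37% of all genes were called lower. There 5 regulators had an unadjusted p under 0.05, a count for which the share of all genes is not given. Nrf1, a transcription factor of many respiratory genes, had log2 fold changes of -0.04 and 0.01 in Day 2 and Day 3 males and -0.21 and -0.17 in females. Ppargc1a, the coactivator PGC-1 alpha, had 0.13 and 0.26 in males and -0.16 and -0.20 in females, none passing the test. Esrra, an estrogen-related receptor that acts with it, was lower in Day 3 males (-0.35, adjusted p = 0.0479), and Ppara, a receptor for fatty acids, was higher in Day 2 and Day 3 males (1.77, adjusted p = 0.0377, and 1.70, adjusted p = 0.0135). Tfam, which packs and transcribes mitochondrial DNA, was lower in Day 5 males (-0.78, adjusted p = 0.0294).

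Since the members moved together, their promoters were searched for the motifs of 5 transcription factors. RefSeq windows on GRCm38.p6, from 250 bases before a gene's start to 50 after it, were found for 65 of 82 members, 70 windows in all, among 32817 windows of all genes. Both strands were searched. The NRF1 letters (GCGCA, any base, then GCGC) stood in 18 of the members' windows (25.7%) and in 4.59% of all windows, YY1 letters AAGATGGC in 9 (12.9%) and 2.74%, GABPA letters ACTTCCG in 9 (12.9%) and 6.41%, ERR letters CAAGGTCA in 4 (5.71%) and 1.56%, and SP1 letters GGGCGG in 26 (37.1%) and 35.6%. The members with the NRF1 letters, 17 genes, had median log2 fold changes of -1.11 in Day 3 males and -1.12 in Day 3 females, and the 48 without had -1.20 and -1.49. For SP1, whose letters were about as frequent in all windows, the medians with and without were -1.02 and -1.27 in males and -1.08 and -1.64 in females. In Day 3 females those with and without were -1.64 and -1.44 for GABPA, -1.55 and -1.40 for YY1 and -1.41 and -1.45 for ERR. A match is a description of letters and no evidence of binding. The windows below show, 5′ to 3′ on the gene's strand with the match in capitals, an NRF1 match in the small subunits Atp5k and Cox6a1, which fell in Day 3 females, and in Sdha, which did not pass the test, an ERR match in Atp5g3, which fell in Day 5 males, and a YY1 match in Ndufb8, which was lower in Day 3 males than in Day 3 females:
Atp5k, NRF1 at -50 from the start, chr5:108434432-108434457, minus strand: tcactgcgGCGCATGCGCctttctgg
Cox6a1, NRF1 at -117, chr5:115349058-115349083, minus strand: gataaagtGCGCAGGCGCtggagttc
Sdha, NRF1 at -55, chr13:74350278-74350303, minus strand: ggcgtgttGCGCAGGCGCagaatctt
Atp5g3, ERR at -52, chr2:73911363-73911386, minus strand: ttacaaagTGACCTTGagcgtctt
Ndufb8, YY1 at 38, chr19:44555393-44555412, minus strand: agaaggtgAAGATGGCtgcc
Atp5k, the e subunit of ATP synthase, had 194, 373, 625 and 84.4 CPM in Day 0 females and 66.4, 38.1, 64.7 and 53.2 in Day 2 females, and fell 5.63-fold (adjusted p = 0.045), with a log2 fold change of -2.49 that was -1.31 (adjusted p = 0.103) without female Day 0 mice 2 and 3. Sdha, with 3 NRF1 matches in its window, had -0.33 in Day 3 females (adjusted p = 0.269).

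Of the 82 tested members, 29 have exons that overlap those of another gene, 24 of them on the opposite strand only, and whether the counting used strand is not given in the sources used here. A total of 19 share at least 1 stretch of 100 bases with another gene, but for 0 of them did this reach 50% of such stretches.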

How the data were processed

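RNA-seq of whole kidney was measured in 32 libraries, 4 mice in each of 8 groups. The authors deposited raw counts per gene, beside FPKM values computed from them. The submitters' processing notes name HTSeq, DESeq2, GRCm39 and mm39, while 98.3% of the gene coordinates equal those of GENCODE M21 on GRCm38. The aligner and the strand setting are not given in the sources used here. Members were chosen by name, and members and gene lists were chosen with earlier results of these data known. Counts were tested with edgeR 4.0.16 (R 4.3.3): genes named mt- were removed, TMM factors and the default expression filter were applied, and a robust quasi-likelihood test was fitted on the groups of each of 13 comparisons. Benjamini-Hochberg adjustment ran over all genes tested, and a gene was called at an adjusted p under 0.05. A change over 1.5 on the log2 scale is also given. CPM values are TMM-scaled over 32 libraries, with a prior count of 2 for log2 CPM. DESeq2 1.42.0, limma 3.58.1 with quality weights, other normalizations and filters, and leaving out each mouse were alternatives. Core subunits and tissue isoforms were named, with the 3 largest changes called in each direction per comparison. On simulated data edgeR recovered 192 of 200 changed genes for the male Day 3 comparison and 164 of 200 for the Day 3 interaction. The simulation gave all genes the same spread between mice (dispersion 0.05), no outlying library, and log2 changes of 1.5 or 2 in size. It therefore does not give the power of the real comparisons, with their uneven Day 0 mice and mostly smaller changes. Shared replicate numbers were checked for pairing by the correlation of the mice's deviations from their group means, and in no comparison were all 4 pairs above 0.1. The largest number of such pairs, 3, was between the sexes at Day 0. The values of 1 member are not reported here on their own.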

Additional observations from a re-analysis of the deposited data

Results flagged for a closer look

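Within 64 sets of 4 mice, 8 had a highest or lowest mouse far from the other 3 by Dixon's test, and chance flags about 1 in 20 groups. Male Day 0 mouse 3 accounted for 4 of them: its member share was 4.73% of the non-mitochondrial counts (nearest 3.14%), its complex I share 1.41% (nearest 0.815%), its complex III share 0.635% (nearest 0.362%) and its mean member level 8.93 in log2 CPM (nearest 7.91). Among Day 2 females, mouse 2 had the lowest complex I share, 0.563% (nearest 0.653%), and mouse 4 the highest complex II share, 0.204% (nearest 0.183%). Among Day 3 males, mouse 1 had a complex IV share of 0.417% (nearest 0.402%). The library labelled male Day 5 mouse 1 had 42.5% of its counts on mitochondrial genes (nearest 78.9%). The cause of these differences was not tested.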

How the results depend on the processing

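The median log2 fold change of the members stayed below 0 in all 108 values of the Day comparisons under alternatives and with mice left out, and the 23 results named by rule kept their sign, but the number of members called depended on the setting. Leaving out 1 mouse gave 0 to 57 calls (male Day 2), 6 to 73 (male Day 3), 0 to 15 (male Day 5), 0 to 67 (female Day 2), 0 to 75 (female Day 3), 0 to 55 (female Day 5), 4 to 24 between sexes at Day 3, 0 to 6 between sexes at Day 5 and 0 to 3 for the Day 5 interaction. DESeq2 called 60 (male Day 2), 23 (male Day 5), 55, 72 and 35 (female Day 2, Day 3 and Day 5), 3 between sexes at Day 5 and 2 for the Day 5 interaction. limma with quality weights called 73 (male Day 2), 35 (male Day 5), 77, 77 and 63 (females), 52 and 6 between sexes at Day 0 and Day 2, 35 and 20 at Day 3 and Day 5, and 35, 41 and 46 for the interactions. With 1 fit over all groups the counts were 60 and 33 (male Day 2 and Day 5), 67, 72 and 60 (females), 0 and 3 between sexes at Day 3 and Day 5 and 3 for the Day 5 interaction. Without a filter they were 1 (male Day 2), 43 (female Day 2) and 4 (female Day 5), with a minimum of 10 counts 5, 39 and 62 (male Day 2, female Day 2 and Day 3), and with coding genes only 5 (male Day 2). DESeq2's size factors gave 19 and 0 (female Day 3 and Day 5), and TMM with mitochondrial genes kept gave 0 (female Day 5). Without the Day 0 libraries of low TMM factor, an alternative chosen after seeing the data, they were 57 (male Day 2) and 3, 0 and 0 (females). With the replicate number as a block they were 0, 0 and 4 in males and 1, 0 and 0 in females, and by the check used the numbers fell short of pairing the mice: no comparison had all 4 pairs correlated above 0.1, while between the sexes at Day 0 the pairs had 0.267, -0.0718, 0.437 and 0.471 and 3 of 4 mice correlated best with their own number. With mitochondrial genes kept, the mean member level was 6.83, 6.74 and 7.04 in males and 6.90, 6.81 and 7.06 in females at Day 2, Day 3 and Day 5, and the share was 2.20%, 2.09% and 0.802% and 2.31%, 2.21% and 1.82%. Over coding genes the male level was 7.27 at Day 3 and the share 2.44% at Day 3 and 3.13% at Day 5. Uqcrc2 in Day 3 males reversed, from 0.04 to -0.23 by limma (adjusted p = 0.0326). The causes were not tested. The shallowest library, a Day 5 male, held 3780528 non-mitochondrial counts.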
